A study of Homo sapiens with 3 samples.

Results

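The genes of the signal peptidase complex and of the Sec61 protein-conducting channel were followed after knockdown of NONO in UM-UC-3, a bladder cancer line of human origin. NONO binds both RNA and DNA and is a component of nuclear paraspeckles. The members were chosen by name as 10 genes (SPCS1, SPCS2, SPCS3, SEC11A, SEC11C, SEC61A1, SEC61B, SEC61G, SEC62 and SEC63), and all 10 were among the 21308 genes listed in all 3 libraries. SPCS3 had already stood out in these libraries by its ratio between the 2 NONO siRNAs, so that ratio is given as a description and without a test. Cells of the line received 75 nM of NONO siRNA 1, of NONO siRNA 2 or of a control siRNA, all with a lipid transfection reagent, and RNA was taken at 48 h. There was 1 library per treatment, read as pairs of 100 bp. Each library received a different siRNA, so the cells of the 3 libraries were transfected separately. With no replicate culture of any siRNA, differences between siRNAs and differences between cultures cannot be told apart.

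Proteins bound for secretion or for membranes enter the endoplasmic reticulum through Sec61, a channel built of the pore-forming alpha subunit SEC61A1 and the small subunits SEC61B and SEC61G. SEC62 and SEC63 join the channel for substrates that enter after translation, and SEC63 recruits the chaperone BiP through its J domain. On the lumenal side the signal peptidase complex cuts off the signal peptide. It combines a catalytic subunit, either SEC11A or its paralog SEC11C, with the accessory subunits SPCS1, SPCS2 and SPCS3, of which the yeast counterpart of SPCS3 is needed for the cleavage itself.

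On GRCh38 (GENCODE 29), the signal peptidase genes are SPCS1 (ENSG00000114902) at chr3:52704955-52711146, SPCS2 at chr11:74949247-74979031, SPCS3 (ENSG00000129128) at chr4:176319964-176332245, SEC11A at chr15:84669538-84716716 and SEC11C at chr18:59139477-59158836. The channel genes are SEC61A1 at chr3:128051641-128071683, SEC61B at chr9:99222064-99230615 and SEC61G at chr7:54752250-54759974, with SEC62 at chr3:169966635-169998373 and SEC63 at chr6:107867756-107958189. SEC11A, SEC61G and SEC63 are on the minus strand and the others on the plus strand. The submitters' processing notes name an older build, so these positions describe the genes and were not matched to the deposited counting.

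The siRNA sequences are shown because the clearest difference among these genes was between the 2 NONO siRNAs. The sequences given in the labels are written below as sense strands, 5′ to 3′, without their overhangs. Capitals mark the bases that pair with the seed of the guide strand, its positions 2 to 8. The control was taken the same way.
NONO siRNA 1: ggcgaagucuuCAUUCAUa
NONO siRNA 2: gcaucccuuacAGUUCGAa
control siRNA: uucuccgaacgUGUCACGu
The capitals of NONO siRNA 1 occurred once in the 3′ UTR of the principal transcripts of SPCS3, SEC62 and SEC63, and in no other member's principal transcript. The windows below are 19 bases of these transcripts (GENCODE 29, GRCh38) in register with the sense strand, with the same 7 bases in capitals.
SPCS3, chr4:176331515-176331533, plus strand: cacaatgtagtCATTCATa
SEC62, chr3:169993292-169993310, plus strand: taagtaggtctCATTCATt
SEC63, chr6:107868845-107868863, minus strand: tgagaggttgtCATTCATc
Of the 3 windows, the one in SPCS3 has an A after the 7 bases and matched the siRNA at 13 of 19 positions, the one in SEC62 at 11 and the one in SEC63 at 13. Their capitals begin at bases 3196, 240 and 2852 after the stop codon. A match is a description of the sequence and not a measured binding site.

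NONO itself stood at 79.5 CPM with siRNA 1 and 104 CPM with siRNA 2, against 823 CPM in the control library (mean log2 fold -3.17, SE 0.24, adjusted p = 0.00698 in limma). CPM is the read count of a gene scaled to the total of its library, without regard to gene length. The values implied 29408573, 28594569 and 27681990 reads in the siRNA 1, siRNA 2 and control libraries. Of 15 urothelial and epithelial markers 9 were listed in all 3 libraries, with a summed level of 98.8 CPM with siRNA 1, 186 CPM with siRNA 2 and 195 CPM in the control. KRT8 stood at 43.0 CPM with siRNA 1 and 85.4 CPM with siRNA 2, against 77.1 CPM in the control, and KRT18 at 49.0 and 93.3 CPM, against 111 CPM. Both keratins together made up most of each sum. GATA3 (2.04 against 1.44 CPM), PPARG (3.09 against 2.31 CPM) and UPK1A (0.44 against 0.43 CPM) stood higher with siRNA 1 than in the control. KRT7, KRT19, UPK2 and TP63, all below 2 CPM, stood lower. None of UPK1B, UPK3A, KRT5, EPCAM and CDH1 was listed in all 3. KRT8 and KRT18 were lowest in the siRNA 1 library, as was SPCS3, described next. With siRNA 2, KRT8 stood above the control, as did SPCS3, while KRT18 stood below it. A link between the keratin and SPCS3 levels was not tested. Of the leukocyte, endothelial and fibroblast markers, 1 of 5, 2 of 4 and 2 of 5 were listed in all 3 libraries, and none of these was above 2.64 CPM. In bulk RNA, fewer cells with a transcript and less of it per cell cannot be told apart.

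SPCS3, an accessory subunit of signal peptidase, was the member that set the siRNA 1 library apart. It stood at 36.6 CPM with siRNA 1 (95% Poisson interval 34.4 to 38.8, 1075 reads) and at 199 CPM with siRNA 2 (194 to 204, 5689 reads), against 168 CPM in the control library (163 to 173, 4655 reads). The intervals are exact for Poisson counts and cover counting error only, since 1 library per siRNA gives no spread between cultures. Read pairs are not independent molecules, so the intervals may be too narrow even for that error. The siRNA 1 library held 21.7% of the control level (95% interval 20.3% to 23.2%), and the siRNA 2 library held 118% (114% to 123%). With siRNA 1 the level was 18.4% of that with siRNA 2 (17.2% to 19.6%). The 2 libraries that share NONO knockdown thus lay on either side of the control for this gene. After adding a pseudocount of 1 CPM, which shrinks the folds of low genes, log2 folds over the control were -2.17 with siRNA 1 and 0.24 with siRNA 2, and all log2 values below are on this scale. The log2 ratio of siRNA 1 over siRNA 2 was -2.41, the value at rank 2 from the lowest of 13922 genes. With 1 library per siRNA this ratio has no replicate check.

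**Figure D1:**
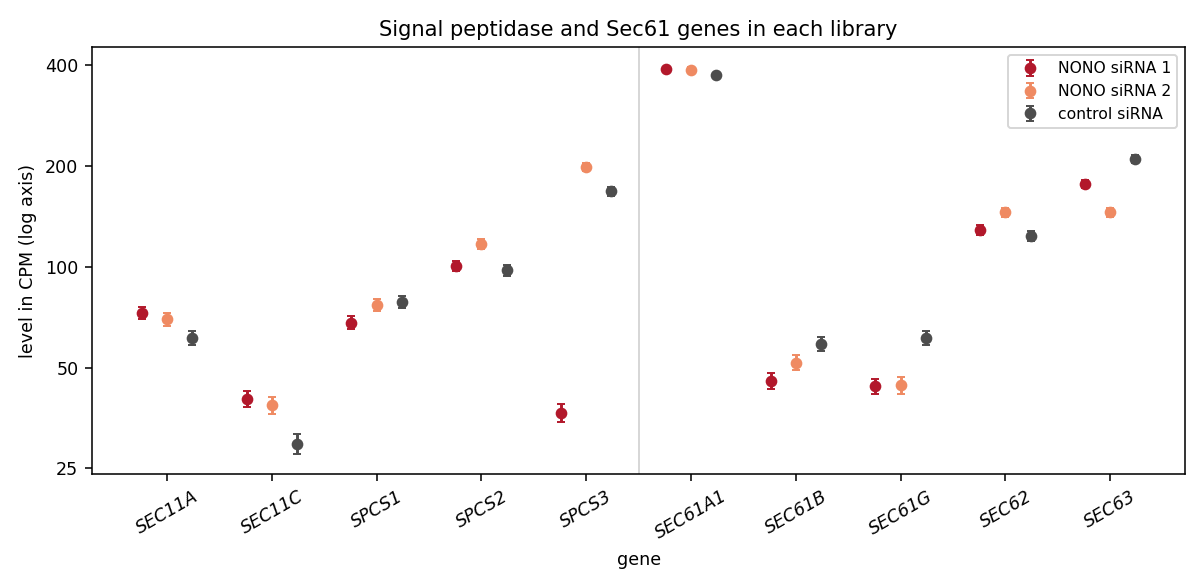
Level of each of the 10 genes in CPM on a log axis, in the NONO siRNA 1, NONO siRNA 2 and control libraries, with 1 library per point and bars for the exact 95% Poisson interval; the vertical line separates signal peptidase from Sec61 genes. SPCS3 stands at 36.6 CPM with siRNA 1 against 199 and 168 CPM in the other libraries, and no other gene of the 10 differs by 2-fold between libraries.

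The catalytic subunits of signal peptidase stood higher with both NONO siRNAs. SEC11A gave 72.9 CPM with siRNA 1 and 69.8 CPM with siRNA 2, against 61.1 CPM in the control. SEC11C gave 40.3 and 38.6 CPM, against 29.5 CPM in the control. Their log2 folds were 0.25 and 0.19 for SEC11A and 0.44 and 0.38 for SEC11C, so the 2 siRNA libraries lay closer to each other than to the control. Relative to the control, SEC11C stood at 137% with siRNA 1 (95% interval 125% to 150%) and at 131% with siRNA 2 (119% to 143%). Per kilobase of annotated exons, SEC11A made up 58.7% of the SEC11 pair with siRNA 1 (exact binomial interval 57.0% to 60.4%), 58.7% with siRNA 2 (56.9% to 60.5%) and 61.9% in the control (59.9% to 63.9%). By the length of the longest coding transcript these shares were 69.2%, 69.1% and 72.0%. SEC11A was the larger share in every library by either length.

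Of the other accessory subunits, SPCS1, which is dispensable for cleavage in yeast, stood at 68.1 CPM with siRNA 1 and 76.8 CPM with siRNA 2, against 78.4 CPM in the control. SPCS2, a subunit that binds SEC61B in the translocon, stood at 101 CPM with siRNA 1 and 117 CPM with siRNA 2, against 97.6 CPM in the control. With siRNA 1, SPCS1 held 86.9% (81.8% to 92.4%) and SPCS2 103% (97.7% to 109%) of the control level. The exons of SPCS1 share 2698 bases with NEK4 and 397 with GLT8D1 on the opposite strand. NEK4 was listed at 34.4 to 41.7 CPM and GLT8D1 at 38.2 to 50.5 CPM. Whether the counting used strand is not given in the sources used here. How reads over the shared bases were assigned, or whether they were left out, is therefore unknown. SPCS2P4, a pseudogene of SPCS2, was listed at 5.47, 7.55 and 5.92 CPM in the siRNA 1, siRNA 2 and control libraries, and the split of reads between it and SPCS2 is uncertain.

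Summed over its 4 other genes, signal peptidase stood at 282 CPM with siRNA 1 and 303 CPM with siRNA 2, against 267 CPM in the control. Per kilobase of exons SPCS3 made up 7.28% of the summed level of the 5 genes with siRNA 1 and 28.1% with siRNA 2, against 27.6% in the control. By the length of the principal transcript the shares were 3.91%, 17.2% and 16.1%. With siRNA 1, SPCS3 was the lowest of the 10 genes per kilobase by either length.

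The Sec61 channel showed no member past 2-fold. SEC61A1, the pore, was the most abundant member per kilobase of exons in every library, at 82.8 CPM per kb with siRNA 1 and 82.4 with siRNA 2, against 79.5 in the control. By the length of the principal transcript SEC61B was above it in the control, at 108 CPM per kb against 103. The level of SEC61A1 was 389 CPM with siRNA 1 and 387 CPM with siRNA 2, against 373 CPM in the control, and the log2 folds of 0.06 and 0.05 were the smallest of the channel. Its exons share 344 bases with RUVBL1 on the opposite strand, which stood at 175 and 127 CPM with siRNA 1 and siRNA 2 and at 115 CPM in the control. The small subunits stood lower with both siRNAs. SEC61B, a tail-anchored subunit, had 45.6 CPM with siRNA 1 and 51.6 CPM with siRNA 2, against 58.9 CPM in the control. SEC61G, which clamps the pore together with its long helix, had 43.9 and 44.2 CPM, against 61.4 CPM in the control. For SEC61G the siRNA libraries lay within 1% of each other, at 71.4% (66.4% to 76.8%) and 71.9% (66.8% to 77.4%) of the control. The pore's share of the trimer per kilobase of exons was 57.1% with siRNA 1 and 55.0% with siRNA 2, against 49.0% in the control. By the length of the principal transcript it was 42.7% and 40.7%, against 34.8% in the control.

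SEC62 and SEC63, the partners of the channel, stood on opposite sides of the control. SEC62 stood at 129 CPM with siRNA 1 and 146 CPM with siRNA 2, against 124 CPM in the control. SEC63 stood at 176 CPM with siRNA 1 and 146 CPM with siRNA 2, against 210 CPM in the control. The lower of the siRNA libraries for SEC63 was that of siRNA 2, at 69.3% of the control (66.6% to 72.2%), while siRNA 1 gave 84.1% (81.0% to 87.3%). Per kilobase of exons SEC62 made up 44.2% of the pair with siRNA 1 and 52.0% with siRNA 2, against 38.9% in the control. By the length of the principal transcript the shares were 41.6% and 49.4%, against 36.5% in the control, so which gene was the larger with siRNA 2 depended on the length used.

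**Figure D2:**
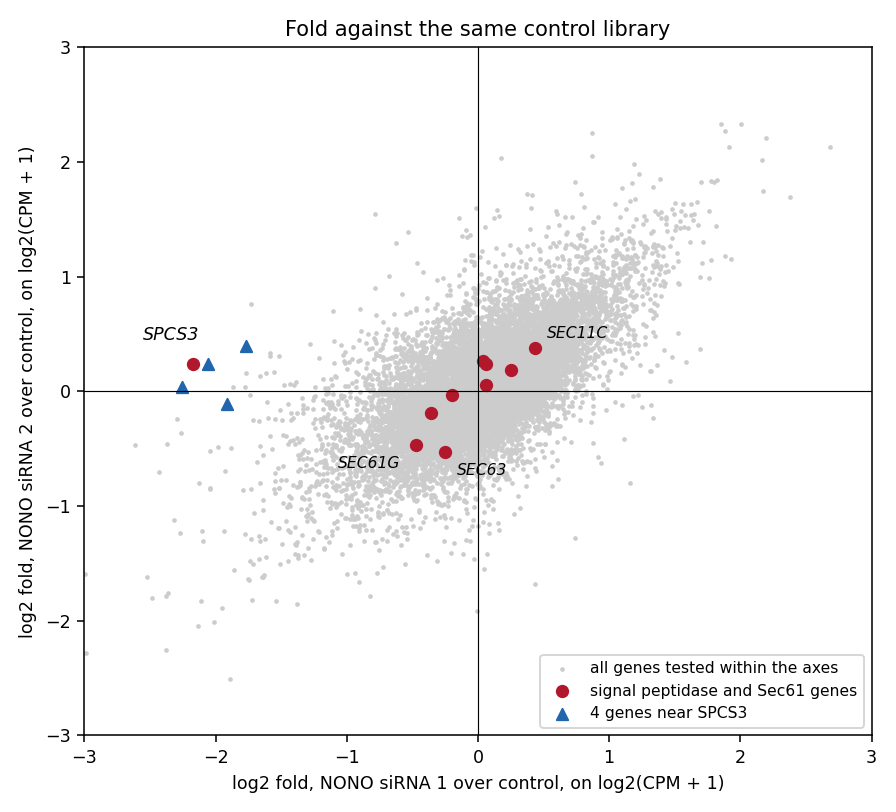
Log2 fold of NONO siRNA 1 over control (horizontal) and of NONO siRNA 2 over control (vertical) on log2(CPM + 1), for genes tested (grey), the 10 signal peptidase and Sec61 genes (red circles) and 4 of the genes nearest to SPCS3 (blue triangles). Both axes share the same control library, so they are not independent; SPCS3 lies at -2.17 and 0.24, and the 9 other genes lie between -0.53 and 0.44 on both axes.

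No member passed the test of NONO siRNA against control. limma, fitted with a trend over the 13922 genes that reached 1 CPM in at least 1 library, called 0 of the 10 members higher, where the background was 0.136% of genes, and 0 lower, where it was 0.079%. No member had an unadjusted p under 0.05, against 11.4% of all genes, and edgeR and DESeq2 on the recovered reads also called none. The lowest limma adjusted p was that of SEC61G, 0.527, with a mean log2 fold of -0.47 (SE 0.25) and a lower value in 2 of 2 siRNA libraries. The largest mean log2 fold was that of SPCS3, -0.97, with an SE of 0.75 (adjusted p = 0.699 in limma). SEC11C had 0.41 (SE 0.25, adjusted p = 0.605 in limma) and SEC63 -0.39 (SE 0.23, adjusted p = 0.591 in limma). The remaining 6 members had mean log2 folds from -0.27 to 0.22, with adjusted p from 0.743 to 0.947 in limma. The test rests on 1 control library, with 1 residual degree of freedom and 7.68 borrowed from the other genes, and a p that misses the threshold does not show that a gene was unaffected.

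By size alone, 1 of 10 members was at least 2-fold lower with siRNA 1 than in the control, where the background was 2.72% of genes, and none was 2-fold higher (2.54%). With siRNA 2, none was 2-fold lower (1.43%) or higher (2.36%). Between the siRNAs, 1 member stood 2-fold or more below its siRNA 2 level in the siRNA 1 library (background 1.47%), and none was higher (0.575%). That member is SPCS3 in each case. It had already stood out by its ratio between the siRNAs, so these counts of 1 are a description. The other 9 members lay within a log2 ratio of 0.3 between siRNA 1 and siRNA 2, as did 62.9% of all genes. The median log2 fold of the 10 members was -0.08 with siRNA 1 and 0.12 with siRNA 2, against 0.03 and 0.01 over all genes tested.

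Among 7445 genes averaging 20 CPM or more, the genes whose folds lay nearest to those of SPCS3 over the 3 libraries included NPTN, UHMK1, SMARCA2 and CDC42SE2. Their Euclidean distances over both log2 folds were 0.12, 0.22, 0.43 and 0.44. NPTN, coding for the adhesion protein neuroplastin, stood at 17.2 CPM with siRNA 1 and 88.2 CPM with siRNA 2, against 74.7 CPM in the control. UHMK1, a serine/threonine kinase, stood at 70.0 and 346 CPM, against 338 CPM in the control. SMARCA2, an ATPase of SWI/SNF chromatin remodelling complexes, stood at 21.6 and 100 CPM, against 76.0 CPM in the control. CDC42SE2, an effector of CDC42, stood at 20.03 and 72.5 CPM, against 78.4 CPM in the control. They were chosen by these folds, so a low siRNA 1 value and a siRNA 2 value near the control follow from the choice.

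Of these 4, the principal transcripts of NPTN and UHMK1 held the 7 bases of siRNA 1 once in the 3′ UTR, that of CDC42SE2 3 times, and that of SMARCA2 not at all. The 3′ UTRs of UHMK1 and CDC42SE2 have 7060 and 3576 bases, and those of NPTN and SMARCA2 1049 and 885. Over the tested genes searched, 15.1% held these bases in the 3′ UTR. Where the 3′ UTR reaches 3000 bases the share was 41.6%. The genes were chosen for their folds, so their matches are a description. The windows of NPTN and UHMK1 and the first of CDC42SE2 are shown as for SPCS3, to set the same 7 bases beside each other.
NPTN, chr15:73560295-73560313, minus strand: ttattcttgtaCATTCATt
UHMK1, chr1:162524755-162524773, plus strand: tattgctgataCATTCATa
CDC42SE2, chr5:131392551-131392569, plus strand: agaaaagcttgCATTCATa
As in SPCS3, the window of UHMK1 and the first of CDC42SE2 have an A after the 7 bases. The window of NPTN and the other matches of CDC42SE2 have a T there.

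SEC62 and SEC63 hold the same 7 bases as SPCS3, without the A that follows them there, and had log2 ratios of siRNA 1 over siRNA 2 of -0.17 and 0.28, against -2.41 for SPCS3. Searching the letters CATTCAT on the transcript strand of 11507 tested genes whose 3′ UTR reaches 50 bases found them in 1743 genes, or 15.1%. They were found in 923 of 2221 genes (41.6%) whose 3′ UTR reaches 3000 bases, the size class of SPCS3 (3915 bases), SEC62 (5310) and SEC63 (3948). Median log2 ratios of siRNA 1 over siRNA 2 were -0.15 for the 1363 genes with 1 match, -0.28 for the 278 with 2 and -0.22 for the 102 with 3 or more, against 0.04 for the 9764 genes without one. The median 3′ UTR of these classes was 2817, 4856 and 7038 bases, against 972 bases. The letters followed by A, as in SPCS3, were in 449 genes (3.90%), with a median of -0.29. The median 3′ UTR of these genes was 3382 bases, and genes with more than 1 match are included. Of the 180 searched genes past 2-fold in that direction between the siRNAs, 81 (45%) held the letters. Such genes were 4.65% of those with a match and 1.01% of those without one. The 528 genes with the 7 bases of siRNA 2 in the 3′ UTR had a median ratio of 0.04 and a median 3′ UTR of 3828.5 bases. For the 341 genes with those of the control siRNA, the medians were 0.04 and 2837 bases. The part of the sequence match in the SPCS3 value was not tested. The 7 bases of siRNA 2 were in the principal transcript of no member, and those of the control siRNA were in that of SEC61A1 alone, in its coding sequence. Over all annotated transcripts, the letters of siRNA 2 were in 1 of 4 of SPCS3 and 1 of 10 of SEC11A. Those of siRNA 1 were in 2 of 4 of SPCS3, 1 of 7 of SEC61G, 1 of 10 of SEC62 and 1 of 10 of SEC63. Those of the control siRNA were in 3 of 7 of SEC61A1.

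**Figure D3:**
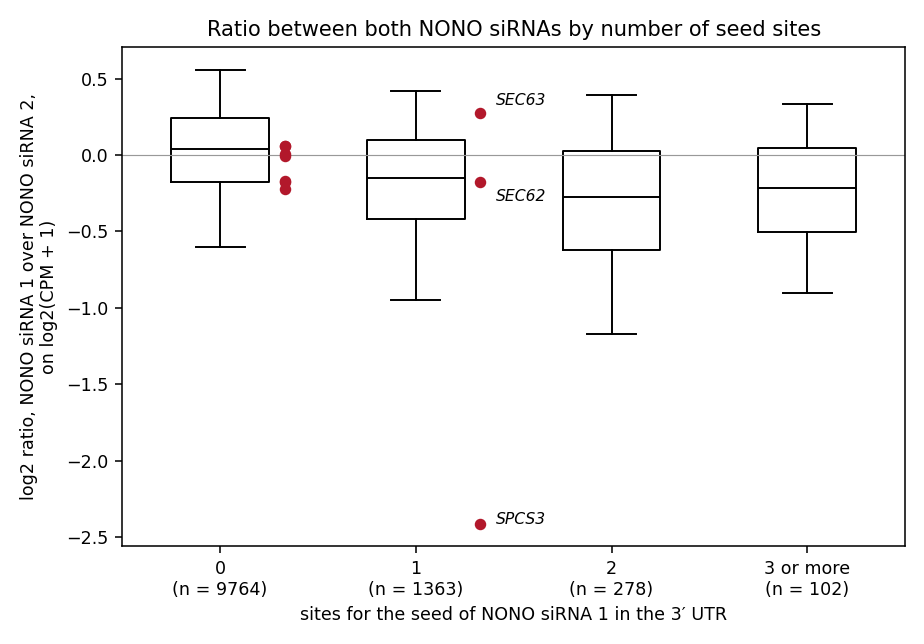
Log2 ratio of NONO siRNA 1 over NONO siRNA 2 on log2(CPM + 1) for genes grouped by the number of 7-base seed matches of siRNA 1 in the 3′ UTR of the principal transcript; boxes span the quartiles with the median line, whiskers reach the 5th and 95th percentiles, and red points are the 10 signal peptidase and Sec61 genes. SPCS3 at -2.41, SEC62 at -0.17 and SEC63 at 0.28 have 1 match each, and the 7 other members have none.

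The other genes of entry into the endoplasmic reticulum were read from 8 lists with 79 genes, of which 78 were tested. limma called 0 of them higher and 0 lower (background 0.136% and 0.079% of genes), and edgeR and DESeq2 called none either, while 10 of 78 had an unadjusted limma p under 0.05 against 11.4% of all genes. No list gene reached a 2-fold gap between the siRNAs on the log2(CPM + 1) scale. CAMLG of the GET list, named after its values were seen, lay at that limit with a log2 ratio of siRNA 1 over siRNA 2 of -0.999, and stood at 14.3 CPM with siRNA 1 and 29.6 CPM with siRNA 2, against 27.0 CPM in the control. Without the pseudocount its siRNA libraries are more than 2-fold apart. Of 78 genes, 45 stood higher than the control with siRNA 1 and 47 with siRNA 2, or 57.7% and 60.3%, against 52.6% and 50.7% of all genes.

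The signal recognition particle and its receptor bring ribosomes to the channel. Of their 8 genes, 4 stood higher and 4 lower than the control with siRNA 1, and the same counts held with siRNA 2. SRPRA, the receptor subunit that docks the particle, stood at 351 CPM with siRNA 1 and 349 CPM with siRNA 2, against 243 CPM in the control (mean log2 fold 0.52, SE 0.21, adjusted p = 0.379 in limma). SRP54, the subunit that binds the signal peptide, stood at 130 and 140 CPM, against 160 CPM in the control. SRP14 stood at 146 and 127 CPM, against 159 CPM in the control.

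In the list of TRAM, TRAP and SEC61A2, 6 of 7 genes stood below the control with siRNA 1 and 5 of 7 with siRNA 2, with median log2 folds of -0.59 and -0.18, against 0.03 and 0.01 over all genes. None passed the limma test. TRAM2, a translocating chain-associated membrane protein, stood at 55.7 CPM with siRNA 1 and 49.6 CPM with siRNA 2, against 78.8 CPM in the control (mean log2 fold -0.58, SE 0.25, adjusted p = 0.423 in limma). SEC61A2, the paralog of the pore, stood at 14.0 and 17.3 CPM, against 22.8 CPM in the control. SSR4, the delta subunit of TRAP, stood at 61.9 and 55.8 CPM, against 71.0 CPM in the control. TRAM1, SSR1 and SSR3 had log2 folds of -0.63, -0.81 and -0.59 with siRNA 1, and of 0.12, -0.12 and -0.18 with siRNA 2. SSR2 stood higher with both, at 0.22 and 0.12. TRAM1, SSR1, SSR2 and SSR3 were named after their values were seen.

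In the oligosaccharyltransferase, which attaches N-glycans to the entering chain, 9 of 12 genes stood higher with siRNA 1 and 7 of 12 with siRNA 2. Over all genes the shares were 52.6% and 50.7%. Median log2 folds of the 12 were 0.16 and 0.07. OSTC, which ties the enzyme to the channel, stood at 37.8 and 39.9 CPM, against 30.2 CPM in the control. RPN1, a ribophorin, stood at 523 and 513 CPM, against 451 CPM in the control, and DAD1 at 149 and 151 CPM, against 172 CPM. The 9 tested genes of the ER membrane protein complex, an insertase, had medians of 0.03 and 0.06, with EMC7 at 36.0 and 34.5 CPM, against 28.4 CPM in the control. The 9 genes of the multipass translocon had medians of -0.05 and 0.11. RAB5IF of that list stood at 10.8 and 13.8 CPM, against 20.6 CPM in the control, and NOMO2, whose reads may be shared with its near-identical copies NOMO1 and NOMO3, at 62.5 and 54.6 CPM, against 42.9 CPM.

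Tail-anchored proteins take the GET route, and the 7 genes of that list had median log2 folds of -0.12 and -0.07. SGTA, the co-chaperone that first takes up the tail anchor, stood at 181 CPM with siRNA 1 and 142 CPM with siRNA 2, against 106 CPM in the control (mean log2 fold 0.58, SE 0.25, adjusted p = 0.414 in limma). Signal peptide peptidase clears the cut signal peptides from the membrane. Its gene HM13 stood at 262 and 254 CPM, against 309 CPM in the control, and the list of 4 had medians of -0.10 and 0.01.

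Chaperones and unfolded protein response genes had the highest medians of the 8 lists. Of 22, 18 (81.8%) stood higher than the control with siRNA 1 and 19 (86.4%) with siRNA 2, against 52.6% and 50.7% of all genes. Median log2 folds were 0.27 and 0.28, against 0.03 and 0.01 over all genes. Both sets of folds share the single control library. An unadjusted limma p under 0.05 was found for 6 of the 22, against 11.4% of all genes, and none passed after adjustment. CRELD2, a secreted protein induced by stress of the endoplasmic reticulum, stood at 30.2 CPM with siRNA 1 and 23.2 CPM with siRNA 2, against 12.03 CPM in the control (mean log2 fold 1.08, SE 0.29, adjusted p = 0.180 in limma). DDIT3, a transcription factor of the stress response, stood at 6.87 and 6.26 CPM, against 3.40 CPM in the control. ERN1, the sensor IRE1, stood at 15.2 and 15.9 CPM, against 33.2 CPM in the control (mean log2 fold -1.05, SE 0.27, adjusted p = 0.166 in limma). ERN1 was thus low in both siRNA libraries, while CRELD2 and DDIT3 were high in both.

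**Figure D4:**
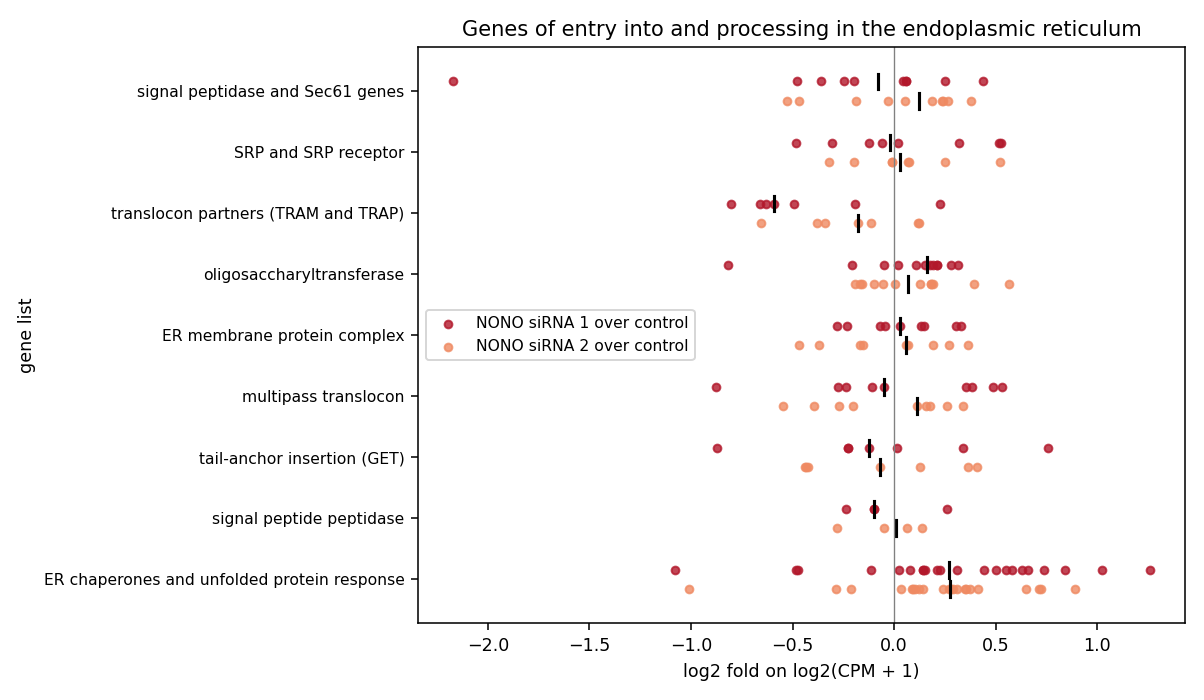
Log2 fold over control on log2(CPM + 1) for the 10 signal peptidase and Sec61 genes and for the 78 tested genes of the 8 pathway lists, with NONO siRNA 1 in dark red above NONO siRNA 2 in orange and a black tick at each median. SPCS3 with siRNA 1, at -2.17, is the lowest point of all lists, and the chaperone list has medians of 0.27 and 0.28.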

How the data were processed

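For each library the authors deposited a table of normalized values, which behave as CPM (counts divided by library size, with no length term). Per the submitters' processing notes, the tools include HISAT2 2.1.0, HTSeq 0.6.1 and bcl2fastq 2.19.1 and the builds are hg19 and GRCh37; no role is stated. No source used here gives the annotation release or the strand setting. Of the values, 99.3% (siRNA 1), 99.5% (siRNA 2) and 99.3% (control) were whole multiples, within 0.01, of the CPM of 1 read. The other 147, 117 and 147 genes sat at 0.5 of a read and counted as 0 in the count tests. Library totals were 29408573, 28594569 and 27681990 reads.

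Of the 21308 shared genes, 13922 with 1 CPM or more in any library were tested with limma 3.58.1 (R 4.3.3, trend, two-sided) on log2(CPM + 1), with Benjamini-Hochberg adjustment at 0.05. As alternatives, the recovered reads were tested with edgeR 4.0.16, using its own filter, and with DESeq2 1.42.0. The code was tested on simulated data. A name table gave symbols to 21049 identifiers. Lengths and seed matches came from GENCODE 29 on GRCh38, with the best APPRIS class, then the longest, as principal transcript.

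P-values use the spread between 2 different siRNAs, and the single control library is taken to vary as much. The members and lists were chosen with earlier results of these data known. The genes named are the 10 members, NONO, 4 of the 5 nearest to SPCS3 (the other is not reported here) and loci related to or overlapping the members. For each list they come from the up to 3 with the largest folds of the same sign with both siRNAs, ranked by the smaller fold; not all are printed. The keratins and the other urothelial and epithelial markers were named after their values were seen.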

Additional observations from a re-analysis of the deposited data

How the results depend on the processing

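No member and no pathway partner was called under any of the 10 other settings of the test, and every member kept the sign of its mean log2 fold under them. The lowest unadjusted p of a member over these settings was 0.0614, for SEC61G with no filter on low values. Leaving out a siRNA library leaves a value with no test. Without siRNA 1 the fold of SPCS3 became 0.24, of the opposite sign, and without siRNA 2 it became -2.17. The other 9 members kept their sign, with values from -0.53 to 0.44. The SPCS3 fold of -0.97 in limma is the average of its log2 folds with siRNA 1 and siRNA 2. edgeR and DESeq2 instead fit a mean read level over both siRNA libraries, and gave -0.54 and -0.53. The SPCS3 ratio of siRNA 1 over siRNA 2 was -2.30 with a pseudocount of 5. By the length of the longest coding transcript the SEC11A share was 69.2%, 69.1% and 72.0% in the siRNA 1, siRNA 2 and control libraries. Over all genes, limma called 19 higher and 11 lower. It called 27 lower with a pseudocount of 5, 2 and 3 where the mean had to reach 5 CPM, 2 and 3 with TMM scaling, 161 and 80 with upper-quartile scaling, and 0 and 3 without a trend (967 and 639 at an unadjusted p under 0.05). With no filter limma called 0 and 0, with 1882 genes at an unadjusted p under 0.05. edgeR called 86 and 65 with its own filter. With the 1 CPM filter, a setting chosen after seeing the data, edgeR called 0 and 1 (881 and 631 at an unadjusted p under 0.05). DESeq2 called 143 and 64. The cause of these shifts was not tested. No paired analysis was possible because the control group has 1 library, so the groups share fewer than 2 replicate numbers. Every member had at least 816 reads in every library, so counting error is small, while the spread between cultures was not measured.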
